A study of Mus musculus with 12 samples.

Results

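Cluster 23 was one of 25 clusters into which the authors sorted single nuclei of the embryonic day 14 mouse cortex, and it held 405 of the 50550 nuclei in their deposited tables. Its members are all nuclei that the authors assigned to this cluster, taken over 11 embryos, and no expression value was used here to choose them. The authors named the cluster migrating interneurons (Migrating Int), a name it shares with the larger Cluster 5, and its nuclei are rich in Erbb4, Gad2 and Dlx1. All embryos were C57BL/6J, with no transgene or deletion named, and came from dams injected with saline or with 2.5 g/kg ethanol (EtOH, 25% v/v in saline), given once a day on 6 days. In batch 1, dam S1 gave saline embryos S1-1 and S1-2 and dam E1 gave EtOH embryos E1-1 and E1-2. In batch 2, dam S2 gave S2-1, S2-2 and S2-4 and dam E2 gave E2-1 to E2-4, which makes 5 saline and 6 EtOH embryos in all. One further saline embryo, S2-3, was not analysed here. The paper states that 1 saline sample, which it does not name, was removed because its cells were distributed differently over the clusters.

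Cortical interneurons are GABA-releasing neurons that are born outside the cortex, in the ganglionic eminences of the ventral forebrain, and migrate tangentially into the cortical plate. Cells from the medial eminence are known for the transcription factors Nkx2-1, Lhx6, Sox6 and Satb1, whereas cells from the caudal eminence are known for Nr2f2, Prox1, Sp8 and Adarb2. Erbb4 is the receptor tyrosine kinase through which neuregulins guide such migrating cells.

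Saline embryos contributed 80, 36, 37, 26 and 60 nuclei to Cluster 23 (S1-1, S1-2, S2-1, S2-2 and S2-4), and EtOH embryos contributed 6, 20, 45, 42, 17 and 36 (E1-1, E1-2 and E2-1 to E2-4). The summed depth of the cluster ran from 21585 molecules, counted by unique molecular identifiers (UMIs), in E1-1 to 809455 in S1-1. Embryo E1-1 fell under the minimum of 10 nuclei and was left out of the embryo means of gene levels in Cluster 23, of the main gene tests and of the test of depth. Among the alternative gene fits, it entered those with at least 5 nuclei and with counts summed per dam. E1-1 also stayed in the shares of nuclei, in the counts over single nuclei and in the mean levels of Cluster 5 over all embryos. The smallest embryo kept, E2-3, had 17 nuclei. Of the 405 nuclei, 46 had more than 10000 UMIs, and 45 of these were in saline embryos (25, 8, 8, 3 and 1), with 1 in E2-3. These nuclei held 52.4%, 36.6%, 40.0%, 27.01% and 3.60% of the cluster's UMIs in the saline embryos and 13.7% in E2-3. A barcode that also occurred in another library was carried by 9 nuclei (2.22%), against 1.26% of all 50550 nuclei. Levels are given as CPM, the UMIs of a gene per 1000000 UMIs of the cluster in 1 embryo. They were compared between clusters or embryos for 1 gene or for the sum of a list. Genes were not compared with each other, because 3′ UMI counts are not scaled between genes. A sum is carried mostly by the highest genes of its list.

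The markers of the cluster were present at similar levels in every embryo. Erbb4 (chr1:68032186-69108059, minus strand, mm10) stood at 25867, 23738, 17787, 16047 and 23993 CPM in the saline embryos and at 22454, 21400, 24711, 22439 and 23845 CPM in the EtOH embryos from E1-2 to E2-4. The groups overlapped, with S2-1 and S2-2 the lowest, and the mean over embryos was 22228 ± 3093 CPM (SD, n = 10). This was the second highest mean of the 25 clusters, after 23026 CPM in Cluster 5. Gad2, which makes GABA from glutamate, reached 1248 ± 165 CPM, the highest mean, with 1210 CPM in Cluster 10 next, a gap smaller than the SD between embryos. Dlx1, a homeobox factor of ventral forebrain cells, reached 174 ± 19.8 CPM, behind 252 CPM in Cluster 10, and was above its Cluster 5 level of 105 CPM in 10 of 10 embryos. Among single nuclei Erbb4 ranged from 234 to 56311 CPM with a median of 22159, and no nucleus lacked it, while 8 of 405 had no Gad2 UMI.

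Over the 12 genes of the interneuron identity list, 4 had their highest mean in Cluster 23 (Gad1, Gad2, Slc32a1 and Dlx5) and for 11 it ranked among the 3 highest clusters. Gad1, the second GABA-making enzyme, stood at 664 ± 78.6 CPM against 514 CPM in Cluster 5. Dlx6os1, a transcript antisense to Dlx6, was at 3803 ± 451 CPM against 1658 in Cluster 5, higher in 10 of 10 embryos. Markers of other cell classes varied in rank. The summed level of 7 projection neuron markers was 117 CPM, the lowest of the 25 clusters, where the highest was 2769 CPM in Cluster 22. The 20 cell cycle genes summed to 235 CPM, ranking 11th, against 2604 CPM in the mitotic Cluster 17. Of the 6 non-neuronal markers, which summed to 9.004 CPM, Olig2 had no UMI. The 4 Cajal-Retzius markers summed to 557 CPM, ranking 5th, above the 299 CPM of Cluster 5 and under the 11889 CPM of Cluster 14. The 8 radial glia markers summed to 271 CPM, ranking 9th, above the 189 CPM of Cluster 5, and the 5 hemoglobin genes to 52.7 CPM, ranking 4th. In its whole profile the cluster was most like Cluster 5 (Pearson's r = 0.961 of log levels over 9250 genes), followed by Cluster 13 (0.928) and Cluster 18 (0.915). These are correlations across genes, which are not independent, and every cluster was cut from the same nuclei and genes, so the comparisons between clusters here are descriptions without a test.

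Cluster 23 and Cluster 5, which carry the same name, differed in the genes known from the caudal and medial eminences. Of the 11 caudal genes analysed, 8 had their highest mean of all clusters in Cluster 23 and 10 were above Cluster 5, in all 10 embryos for 8 of them. The caudal genes summed to 20988 CPM, close to the 20613 CPM of Cluster 15 and above the 3537 CPM of Cluster 5. All 12 medial genes were below Cluster 5, in all 10 embryos for 9 of them. Over all 14892 genes at 1 CPM or more in either cluster, 46.1% were higher in Cluster 23 than in Cluster 5 and 6.39% had their highest mean in Cluster 23.

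**Figure D1:**
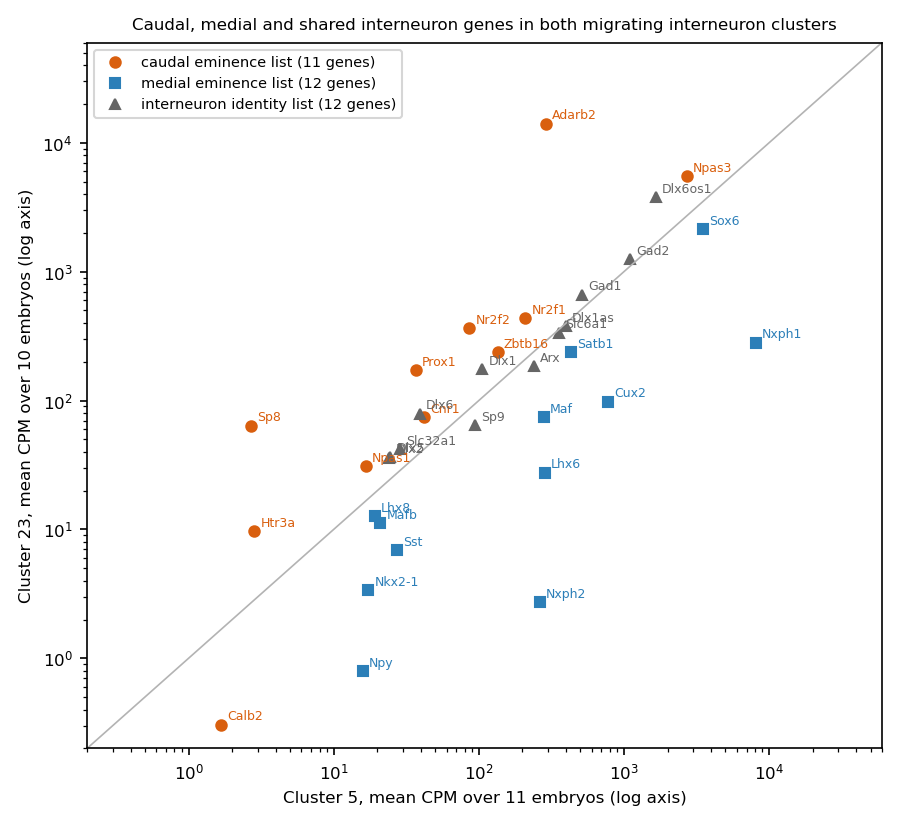
Mean CPM of each gene of the caudal eminence, medial eminence and interneuron identity lists in Cluster 23 (vertical, 10 embryos) against Cluster 5 (horizontal, 11 embryos), on log axes, with a line of equal levels. The caudal genes other than Calb2 lie above the line, the 12 medial genes lie below it, and of the 12 interneuron identity genes 8 lie above it and 4 below.

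Adarb2 (chr13:8202866-8768747, plus strand), a catalytically inactive relative of the RNA-editing enzymes, exceeded its Cluster 5 level by the largest ratio of all genes at 100 CPM or more in either cluster. Its level in Cluster 23 was 14978, 15275, 8462, 9342 and 14785 CPM in the saline embryos and 14794, 15832, 14483, 15176 and 17825 CPM in the EtOH embryos. S2-1 and S2-2 were again lowest, yet each embryo was far above the Cluster 5 mean of 289.5 CPM, a 48.7-fold difference of means. Only Cluster 15 had more, with 18432 CPM. That cluster also carried medial genes at higher levels than Cluster 23, with Lhx8 at 171 CPM against 12.7 CPM.

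The caudal transcription factors followed. Nr2f2, an orphan nuclear receptor, stood at 362 ± 104 CPM against 86.0 CPM in Cluster 5, and its relative Nr2f1 at 438 ± 50.3 against 208 CPM. The homeobox factor Prox1 stood at 173 ± 87.0 CPM against 36.7 CPM, with S2-1 alone at 391 CPM and the other embryos between 93.9 and 232 CPM. Sp8, a zinc finger factor, was at 64.0 ± 24.4 CPM (161 UMIs in all) against 2.67 CPM in Cluster 5, and no other cluster exceeded the 23.3 CPM of Cluster 13. Npas3 (5504 against 2716 CPM) and Zbtb16 (236 against 135 CPM), both transcription factors, also had their highest means here. Genes of more mature caudal types were scarce: Htr3a, a serotonin-gated channel, rested on 30 UMIs (9.69 CPM), and the calcium-binding protein gene Calb2 on 2.

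**Figure D2:**
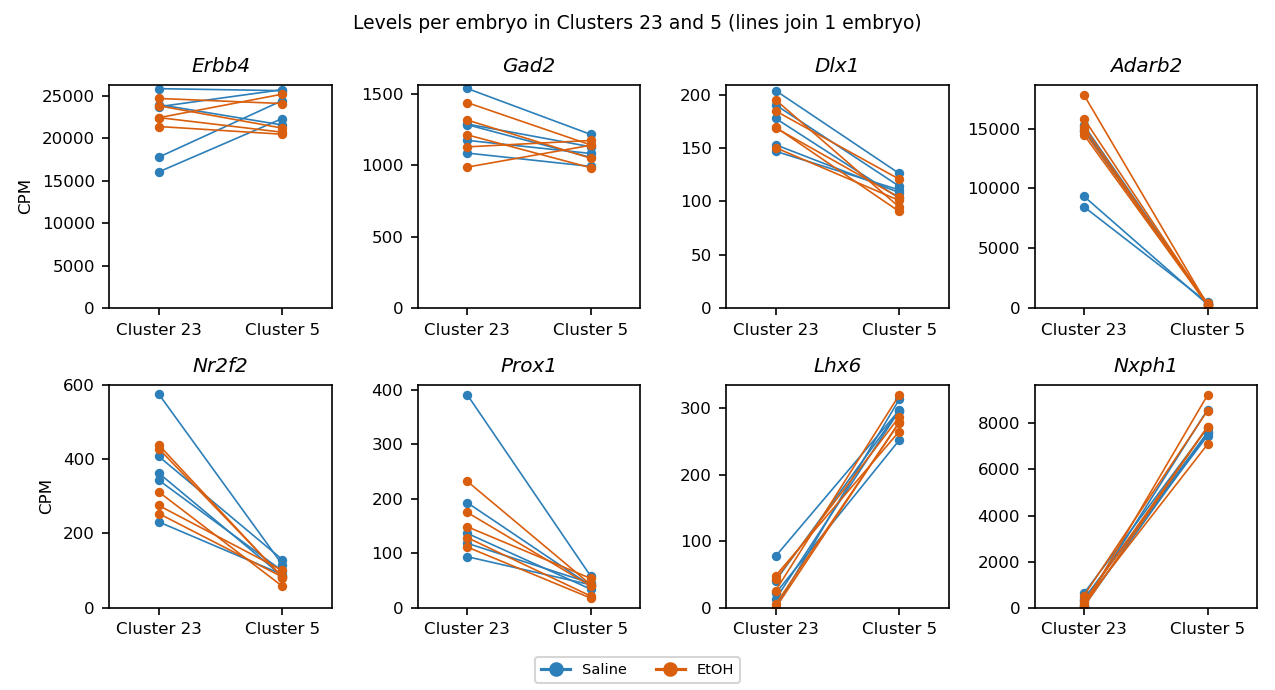
CPM per embryo (vertical) in Cluster 23 and Cluster 5 for 8 genes, with a line joining the values of 1 embryo, blue for saline and orange for EtOH (10 embryos). Erbb4 and Gad2 overlap between clusters, Dlx1, Adarb2, Nr2f2 and Prox1 are higher in Cluster 23 in each embryo, and Lhx6 and Nxph1 are higher in Cluster 5 in each embryo.

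Medial genes were lower than in Cluster 5 but not all near 0. The 12 genes summed to 2904 CPM against 13689 CPM in Cluster 5, and their sum ranked 5th among all clusters. For 3 of the 12, Cluster 23 ranked among the 3 highest clusters. Nxph1, a secreted ligand of neurexins, was at 281 CPM against 8070 CPM in Cluster 5, and Nxph2 at 2.74 against 262.5 CPM. Lhx6, the LIM homeobox factor of medial interneurons, was at 27.6 against 285 CPM, and Maf at 74.0 against 279 CPM. Sox6 kept a level of 2145 ± 736 CPM, lower than the 3487 CPM of Cluster 5 in 9 of 10 embryos, and S2-2 was the exception with 3998 CPM. The peptide gene Sst rested on 16 UMIs and Npy on 4.

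Single nuclei were compared as well. For this comparison each nucleus was thinned at random to 2000 UMIs, which left out 1 nucleus of Cluster 23 (in S2-4). The callosal projection neurons of Cluster 1 are shown as a class outside the interneurons, and free RNA was not estimated. The median depth before thinning was 5900 UMIs in Cluster 23, 6652 in Cluster 5 and 6607.5 in Cluster 1. Adarb2 was found in 404 of 404 nuclei, in 26.01% of Cluster 5 and in 21.03% of Cluster 1 (100%, 50.2% and 43.5% before thinning). Nr2f2 was found in 41.8%, 11.4% and 3.45% of nuclei of the 3 clusters, Prox1 in 21.8%, 6.20% and 0.897%, and Sp8 in 10.9%, 0.450% and 0.161%. Lhx6 went the other way, with 3.47% in Cluster 23, 42.8% in Cluster 5 and 0.506% in Cluster 1. Htr3a was found in 1.73% of Cluster 23.

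**Figure D3:**
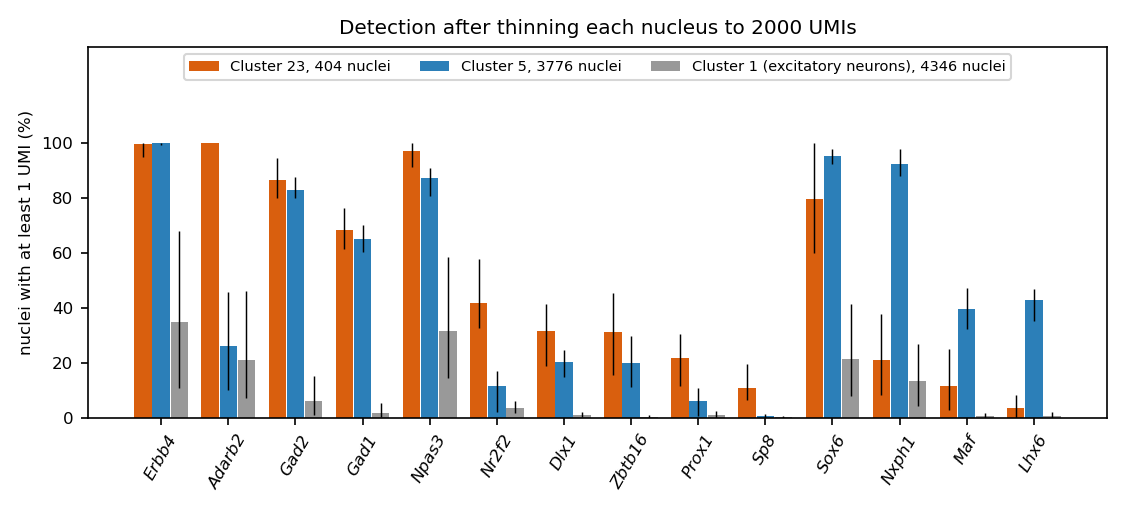
Percent of nuclei with at least 1 UMI of each gene after thinning to 2000 UMIs per nucleus, in Cluster 23 (404 nuclei), Cluster 5 (3776) and Cluster 1 (4346). Bars show all nuclei together and lines the lowest and highest embryo. Adarb2 is at 100% in Cluster 23, and Lhx6 and Nxph1 are highest in Cluster 5.

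Caudal and medial factors were also scored together in each thinned nucleus, as at least 1 UMI of Prox1, Nr2f2 or Sp8 and at least 1 UMI of Lhx6, Maf or Nxph2. These genes are a part of the lists, and the shares depend on that choice. Of medial genes not scored, Sox6 was found in 79.5%, 95.3% and 21.4% of Clusters 23, 5 and 1, and Nxph1 in 21.04%, 92.4% and 13.2%. Of caudal genes, Adarb2 was not scored. Among the scored medial genes, Maf was found in 11.4% of Cluster 23 and Lhx6 in 3.47%. In Cluster 23, 200 nuclei (49.5%) had caudal genes only, 33 (8.17%) medial genes only, 24 (5.94%) both and 147 (36.4%) neither. The corresponding shares were 7.28%, 62.4%, 8.55% and 21.8% in Cluster 5, and 4.39%, 1.38%, 0.0690% and 94.2% in Cluster 1. The 8.17% with medial genes only was above the 1.38% in callosal neurons.

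Of the genes at 50 CPM or more, Sp8 stood out most from the other 24 clusters. Next came Grin2d, a subunit of NMDA receptors, with 52.98 CPM against 19.95 CPM in Cluster 7, and Prox1os, the transcript opposite Prox1, with 52.8 against 22.95 CPM in Cluster 10. Trpc4, a cation channel, had 657 ± 153 CPM against 288 CPM in Cluster 7, and Ubash3b, a phosphatase, 429 ± 115 against 203 CPM in Cluster 5. Crb1, a cell polarity protein, had 191 against 93.8 CPM in Cluster 10. The list went on with Brinp2, Zbtb16, Grip1os1, Gm17750, Zfp704 and Plekha1. Its lower part held Tle2, Gm43948, Fbxo8, Zfp536, Slain1 and Grip1os2, each with a smaller ratio to the next cluster than Crb1. Nrxn3, a presynaptic adhesion receptor, carried the most UMIs of the list, with 43970 ± 2843 CPM against 29587 CPM in Cluster 5. Ccdc88a, which encodes the actin-binding protein girdin, varied little between embryos, at 1951 ± 90.01 CPM against 1326 CPM in Cluster 10.

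Against Cluster 5 alone, among genes at 100 CPM or more in the higher of the 2 clusters, which leaves out Sp8, the largest ratios after Adarb2 were those of Sorcs3, a sorting receptor (721 against 55 CPM, 13.1-fold), and the ligand gene Wnt5a (123 against 12.2 CPM, 10.0-fold). Synpr, a synaptic vesicle protein, had 207 against 23.2 CPM, Pdzrn3, a ubiquitin ligase, 1113 against 151 CPM, and Pbx3, a homeobox factor, 1418 against 280 CPM. Angpt1, Gm43948, Trhde and Prox1 completed the 10. The 10 genes lower than in Cluster 5 began with both neurexophilins. Among them were the glutamate receptors Grm5 (67.6 against 1212 CPM) and Gria1 (264 against 2729 CPM), the kainate receptor partner Neto1 (26.6 against 380 CPM) and the scaffold Dlgap1 (239 against 3910 CPM). Dpp10, a potassium channel partner, had 109 against 2726 CPM, Cntnap3 13.4 against 275 CPM, and Ackr3, a receptor that takes up the chemokine Cxcl12, 12.95 against 184 CPM. Fam135b was the tenth. These genes differed in the stated direction in 10 of 10 embryos.

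Other lists placed the cluster as follows. Of 20 migration and guidance genes, Dcx (816 ± 120 CPM), Ccdc88a and Cdk5r1, all of which act on the cytoskeleton of migrating neurons, had their highest means here, although Dcx exceeded the 751 CPM of Cluster 9 by less than its SD. The guidance receptors Robo1 (2962 against 1296 CPM) and Nrp2 (323 against 119 CPM) were above Cluster 5 in 10 of 10 embryos, and Epha3 (852 against 1483 CPM) was below it in 10 of 10. Among 8 neuregulins and Erbb receptors only Erbb4 and Erbb3 ranked in the top 3, and Erbb3 rested on 1 UMI. Nrg1, a ligand of Erbb4, was at 1632 CPM and ranked 22nd, and Nrg3, another, was at 1823 CPM and ranked 14th. Of 19 glutamate receptor genes, 13 were below Cluster 5, and 8 of these in all embryos, among them Gria4 (1116 against 4534 CPM). Grip1, an anchor of AMPA receptors, had its highest mean here (6180 ± 904 CPM against 4731 in Cluster 5), as did Grin2d. Of 16 synaptic adhesion genes 5 had their highest mean here (Nrxn3, Nlgn3, Cntnap5c, Dscaml1 and Ncam1), while Ptprd, a presynaptic receptor phosphatase, had its lowest (1216 CPM). Of 17 genes of neuronal maturation and transmitter release, 3 had their highest mean here, among them Map2 (2787 ± 194 CPM) and Celf4 (2343 ± 289 CPM), and the splicing factor Rbfox1 its lowest (489 ± 340 CPM, against 2632 in Cluster 5). Genes of the lateral eminence and striatum reached 0 highest means of 12, with Meis2 at 1091 CPM against 7081 in Cluster 13. Their sum of 3221 CPM ranked 15th but was above the 1756 CPM of Cluster 5, with 6 of the 12 genes higher and 6 lower. Of the 100 markers that the study itself drew from these nuclei, 54 had their highest mean here, which is no independent evidence.

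The first treatment question was whether EtOH changed the size of the cluster. Cluster 23 made up 1.05%, 0.714%, 0.615%, 0.586% and 0.832% of nuclei in the saline embryos, and 0.207%, 0.851%, 1.18%, 0.852%, 0.725% and 0.929% in the EtOH embryos. The groups overlapped, and E1-1, with 6 of 2898 nuclei, was the lowest (exact binomial 95% interval 0.0760% to 0.450%, counting error only). The means were 0.759% ± 0.188 (SD, n = 5) and 0.791% ± 0.324 (n = 6), a difference of 0.0324 percentage points (two-sided exact permutation test over 462 splits, p = 0.853). Within batches the exact permutation p was 0.857, and the order of the means was opposite in the batches, with 0.881% against 0.529% in batch 1 and 0.677% against 0.922% in batch 2. Without E1-1 the difference was 0.149 points (exact permutation p = 0.206), and without S2-1, S2-2 or E2-1 it turned negative (lowest -0.0460 points). As a share of the 7 interneuron clusters, Cluster 23 made up 2.89% ± 0.818 in saline and 3.17% ± 1.24 in EtOH embryos (difference 0.285 points, exact permutation p = 0.665, within batches 0.7). A change in the size of the cluster was not detectable with these embryos. The authors had removed 1 saline sample for its distribution over the clusters, so the saline shares were selected on a related quantity.

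**Figure D4:**
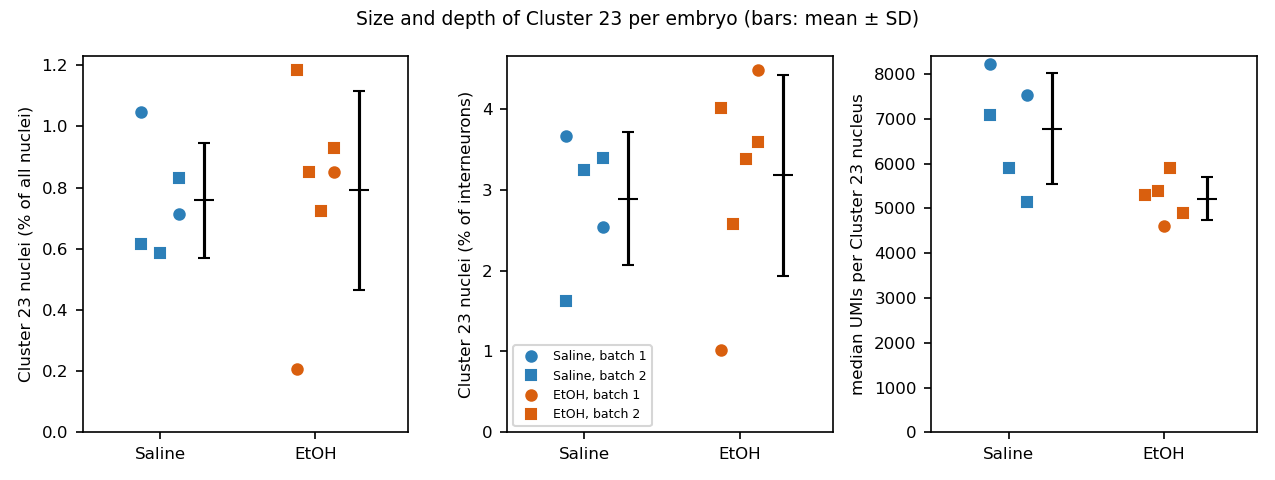
Cluster 23 as a percent of all nuclei (left) and of interneuron nuclei (middle), and its median UMIs per nucleus (right), with 1 point per embryo, circles for batch 1, squares for batch 2, and bars for the mean ± SD. The shares overlap between groups, with E1-1 lowest in both, and the median UMIs of 4 of 5 saline embryos lie above those of the 5 EtOH embryos.

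Depth per nucleus was lower in the EtOH embryos, and not in Cluster 23 alone. The median UMIs per nucleus were 8230, 7528, 7077, 5907 and 5148 in the saline embryos and 4616, 5302, 5386.5, 5893 and 4900 in the EtOH embryos with at least 10 nuclei. All saline embryos but S2-4 were above all EtOH embryos, and the means were 6778 ± 1243 and 5220 ± 489 (n = 5 and 5, difference -1559, two-sided exact permutation test, p = 0.0476). The call was lost within batches (exact permutation p = 0.0571) and when S1-1, S1-2, S2-1 or any 1 EtOH embryo was left out (p up to 0.0873). In each of the 11 embryos the median of Cluster 23 lay below that of all nuclei of the embryo. Over all nuclei the medians ran from 6325 to 9051 UMIs in the saline and from 4071.5 to 6911 UMIs in the 6 EtOH embryos, and in Cluster 5 from 5892 to 8558 and from 4140 to 5959 UMIs, without a test.

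EtOH and saline embryos were then compared gene by gene with edgeR's quasi-likelihood test on counts summed per embryo, 5 against 5. A gene was called where the Benjamini-Hochberg adjusted p was below 0.05 and the fold change was below 0.8 or above the inverse of 0.8. Of 3915 genes tested, 16 (0.409%) were called, 10 higher after EtOH (0.255%) and 6 lower (0.153%), and 441 (11.3%) had an unadjusted p under 0.05. Littermates were treated as independent with 2 dams per treatment, so the p-values measure the spread between these embryos. The filter on low counts kept a gene only where at least 5 embryos reached a minimum level. A gene below that level throughout 1 group was therefore tested only if all 5 embryos of the other group reached it. The markers of the cluster were not called, with log2 fold changes (EtOH over saline) of 0.10 ± 0.14 (SE) for Erbb4 (adjusted p = 0.846), -0.05 ± 0.12 for Gad2 (0.936) and -0.00 ± 0.16 for Dlx1 (0.999) by edgeR.

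Aff2 (chrX:69360294-69868037, plus strand), the gene silenced in fragile XE syndrome, which encodes a nuclear RNA-binding protein, was lower after EtOH. It stood at 461, 415, 388, 235 and 233 CPM in the saline embryos and at 107, 109, 138, 112 and 109 CPM in the EtOH embryos. The groups did not overlap, as was so for 83 (2.12%) of all genes tested, and Aff2 fell by 1.59 on the log2 scale (SE 0.22, edgeR adjusted p = 0.00246). Batch 1 had 438 CPM in saline and 107 CPM in E1-2, and batch 2 had means of 285 and 117 CPM. It was called under 25 of 25 alternatives, also after all nuclei were thinned to 2000 UMIs and without the nuclei over 10000 UMIs. The 6 nuclei of E1-1, which was left out of the main test, gave 371 CPM, inside the saline range. With E1-1 added, at a minimum of 5 nuclei, the log2 change was -1.48 (edgeR adjusted p = 0.00781).

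The receptor tyrosine phosphatase Ptprg (chr14:11553532-12242041) showed the same pattern. It stood at 267, 299, 278, 219 and 116 CPM in saline and at 85.9, 56.3, 73.1, 74.4 and 104 CPM in EtOH embryos. The groups did not overlap, with S2-4 nearest to the EtOH embryos, and Ptprg fell by 1.61 (SE 0.26, edgeR adjusted p = 0.00573). It was called under 22 of the 24 alternatives that gave it a value.

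Cntn5, a contactin that acts in neuronal adhesion, stood at 259, 155, 275, 241 and 135 CPM in saline and 43.0, 36.2, 98.9, 93.0 and 71.1 CPM in EtOH embryos, without overlap. It fell by 1.63 on the log2 scale (SE 0.28, edgeR adjusted p = 0.0118). Slit2, the repulsive ligand of Robo receptors, stood at 152, 234, 200, 148 and 76.6 CPM in saline and 64.5, 40.2, 77.4, 37.2 and 27.4 CPM in EtOH embryos, and S2-4 lay inside the EtOH range. Its log2 change was -1.69 ± 0.33 (edgeR adjusted p = 0.0314). Mgat4c, a glycosyltransferase, stood between 49.0 and 74.3 CPM in saline and between 4.30 and 32.8 CPM in EtOH embryos, and fell by 1.92 (SE 0.38, edgeR adjusted p = 0.0314). It passed the filter on low counts through its saline embryos alone, so the gap between its groups is partly set by the filter. Kcnq1ot1, an imprinted RNA made from the strand opposite Kcnq1, had means of 566 ± 83.0 and 310 ± 100 CPM, with E2-4 at 476 CPM inside the saline range, and fell by 0.83 (SE 0.17, edgeR adjusted p = 0.0404). With batch as a term in edgeR, Slit2 (adjusted p = 0.0520), Mgat4c (0.0563) and Kcnq1ot1 (0.0708) were no longer called, and neither was Slit2 by limma voom with a random effect for the dam (adjusted p = 0.0845).

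All 6 genes that fell were among the lowest in Cluster 23 of all clusters, at rank 24 or 25 of 25, a rank held by 209 (5.34%) of all 3915 genes tested, and their highest levels lay elsewhere, such as 1545 CPM of Aff2 in Cluster 1 and 2479 CPM of Slit2 in Cluster 20. The summed markers of other cells are given beside these genes, without a test, and the ranges of the saline and EtOH embryos overlapped for every list. The 7 projection neuron markers, 6 of them with a higher saline mean and none at 0 in all embryos, summed to between 107 and 187 CPM in saline and between 46.5 and 112 CPM in EtOH embryos. The 12 lateral eminence genes summed to between 2713 and 4974 CPM in saline and between 2004 and 4211 CPM in EtOH embryos, with 9 higher in saline and Zfp503 at 0, and the 20 cell cycle genes to between 105 and 416 and between 118 and 241 CPM, with 14 higher in saline and Ccna1 at 0. The 12 medial genes summed to between 2629 and 4578 and between 2288 and 2773 CPM, and the 4 Cajal-Retzius markers, of which Reln carried most, to between 224 and 678 and between 521 and 784 CPM, although 3 of the 4 had a higher mean in saline. The 8 radial glia markers summed to between 224 and 345 and between 202 and 294 CPM, the 4 intermediate progenitor markers to between 3.29 and 60.2 and between 9.30 and 21.5 CPM, the 6 non-neuronal markers to between 0 and 12.3 and between 0 and 28.2 CPM, and the 5 hemoglobin genes of red blood cells to between 1.24 and 202 and between 18.6 and 65.7 CPM. Their part in the lower levels of these 6 genes, and that of the high-UMI nuclei of the saline embryos, was not tested beyond the fits without those nuclei.

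**Figure D5:**
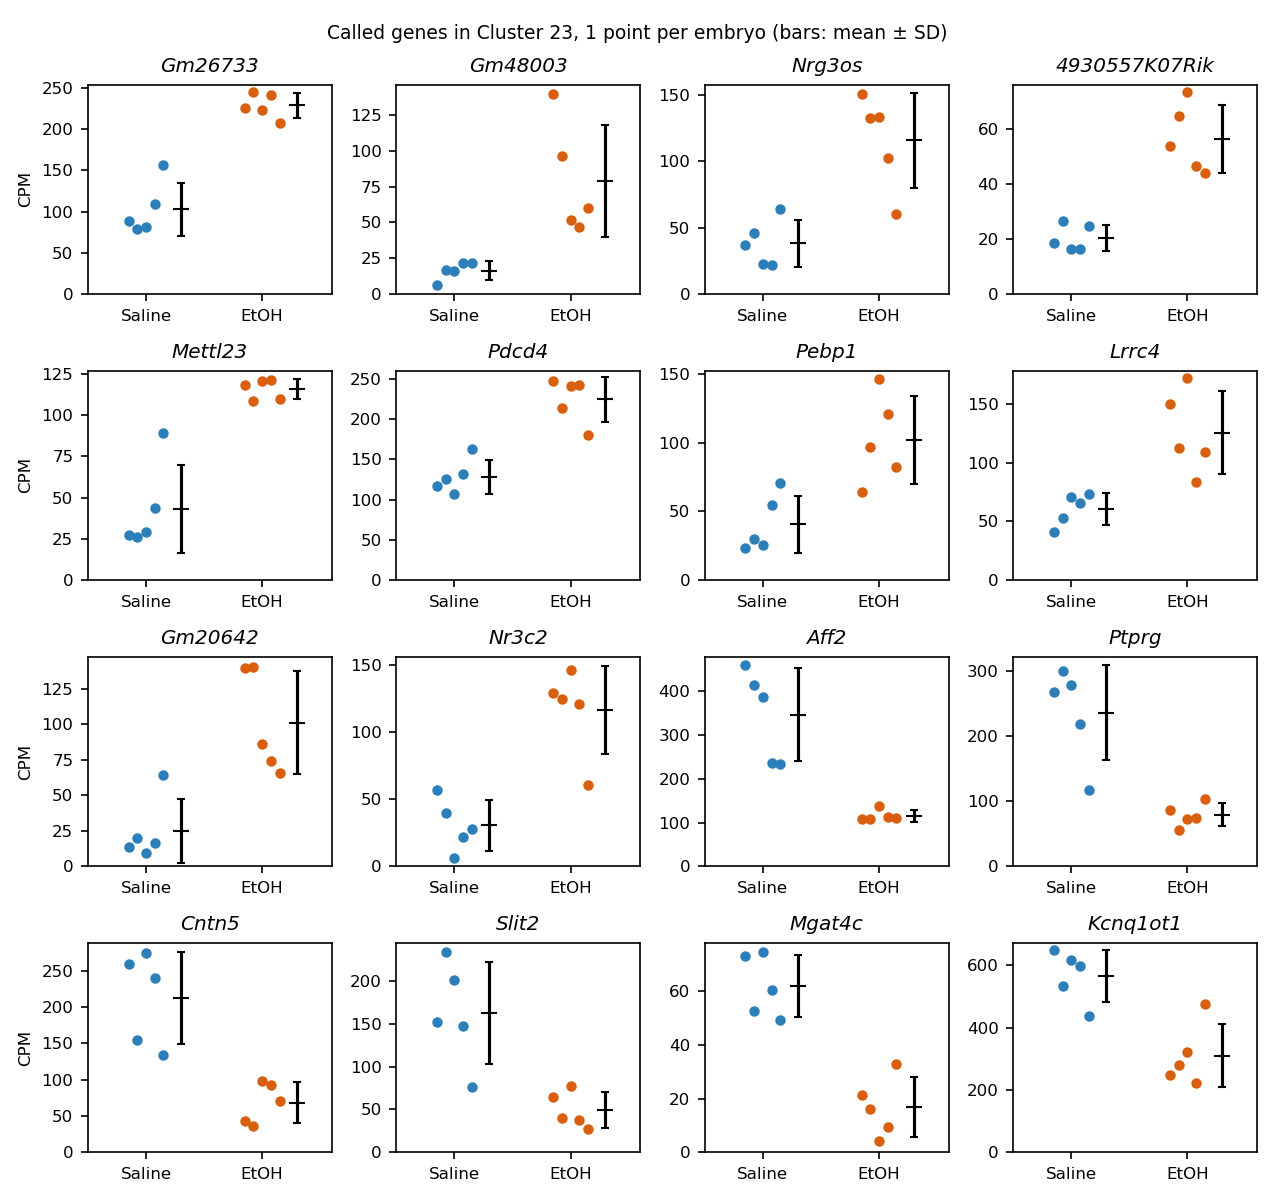
CPM per embryo in Cluster 23 (1 point per embryo, 5 saline and 5 EtOH) for the 16 called genes, 10 higher after EtOH first and then 6 lower, with bars for the mean ± SD and axes that start at 0. Nrg3os, Pebp1, Slit2 and Kcnq1ot1 have overlapping groups and the other 12 do not.

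Of the 10 genes that rose, 5 are not protein-coding in the annotation, as were 136 (3.5%) of the 3882 tested genes that could be placed in it. An overlap with a gene on the other strand was found for 8 of these 10 and for 5 of the 6 that fell, against 2190 (56.4%) of the 3882. Gm26733 (chr9:20432760-20563282, a long non-coding RNA) stood at 88.9, 79.0, 80.7, 109 and 156 CPM in saline and at 226, 245, 224, 242 and 208 CPM in EtOH embryos, without overlap. It rose by 1.17 on the log2 scale (SE 0.19, edgeR adjusted p = 0.00573) and was called under 22 of 25 alternatives. Gm48003 (chr14:29574697-29593304), opposite the calcium channel subunit gene Cacna2d3, stood at 6.18, 16.5, 16.1, 21.9 and 21.4 CPM in saline and at 140, 96.6, 51.6, 46.5 and 60.2 CPM in EtOH embryos. It rose by 2.39 (SE 0.39, edgeR adjusted p = 0.00573), whereas Cacna2d3 itself had a log2 change of 0.17 ± 0.14 (adjusted p = 0.704). Gm48003 passed the filter on low counts through its EtOH embryos alone, so the gap between its groups is partly set by the filter. 4930557K07Rik, opposite Zfp384 and Ing4, had means of 20.4 and 56.3 CPM (log2 change 1.4996 ± 0.31, edgeR adjusted p = 0.0375, and 0.0708 with batch as a term). Its low saline mean leaves most saline embryos below the minimum level of the filter. It thus passed mainly through its EtOH embryos, and its difference is partly set by the filter.

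Both Nrg3os (chr14:38898302-38958794) and Gm20642 (chr14:39220071-39250430) lie opposite Nrg3, the neuregulin gene. Nrg3os stood at 37.1, 46.1, 22.6, 21.9 and 64.3 CPM in saline and at 150, 133, 133, 102 and 60.2 CPM in EtOH embryos, where E2-4 lay inside the saline range, and rose by 1.54 (SE 0.30, edgeR adjusted p = 0.0314). Gm20642 stood at 13.6, 19.7, 9.69, 16.4 and 64.3 CPM in saline and at 140, 141, 86.0, 74.4 and 65.7 CPM in EtOH embryos, and rose by 2.07 (SE 0.43, edgeR adjusted p = 0.0464, and 0.0902 with batch as a term). Its saline embryos other than S2-4 lay below the minimum level of the filter on low counts. It thus passed mainly through its EtOH embryos, and the gap between its groups is partly set by the filter. Nrg3 itself was at 1990, 1550, 1076, 809 and 1397 CPM in saline and at 2278, 2760, 2180, 2027 and 2162 CPM in EtOH embryos, which did not overlap, with a log2 change of 0.73 ± 0.21 that was not called (adjusted p = 0.185). The methods state Cell Ranger's default settings, which count reads on the sense strand, but do not name strand, so the values of opposite transcripts are uncertain.

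The protein-coding genes that rose were Mettl23, Pdcd4, Pebp1, Lrrc4 and Nr3c2. Nr3c2, the mineralocorticoid receptor, stood at 56.8, 39.5, 6.46, 21.9 and 27.6 CPM in saline and at 129, 125, 146, 121 and 60.2 CPM in EtOH embryos, without overlap, and rose by 1.73 (SE 0.37, edgeR adjusted p = 0.0481). It was not called in the fits that took account of the dams (adjusted p = 0.0533 by limma voom with a random effect for the dam, and 0.0946 by edgeR on counts summed per dam). Of its saline embryos only S1-1 reached the minimum level of the filter on low counts. Nr3c2 thus passed mainly through its EtOH embryos, and the gap between its groups is partly set by the filter. Lrrc4, a postsynaptic ligand of netrin-G, stood between 40.8 and 73.5 CPM in saline and between 83.7 and 172 CPM in EtOH embryos (log2 change 1.12 ± 0.25, edgeR adjusted p = 0.0464). Pdcd4, an inhibitor of translation, had means of 129 ± 21.03 and 225 ± 27.96 CPM (log2 change 0.81 ± 0.17, edgeR adjusted p = 0.0375). Mettl23, a methyltransferase, had 43.0 ± 26.6 and 116 ± 5.99 CPM (1.47 ± 0.31, edgeR adjusted p = 0.0375). Pebp1, an inhibitor of RAF kinase, had 40.8 ± 20.7 and 102 ± 32.2 CPM with overlap between groups (1.47 ± 0.32, edgeR adjusted p = 0.0464). With batch as a term in edgeR, Pdcd4 (adjusted p = 0.0563), Mettl23 (0.0770), Lrrc4 (0.0902) and Pebp1 (0.100) were no longer called. In batch 1, with 1 EtOH embryo, and in batch 2 the means of the 16 genes lay in the same order. This is no separate evidence, because the genes were called from these same embryos.

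How many genes were called rested on single embryos and on the fit. The count was 2 without E2-1, 5 without E1-2, 6 without S2-2, 6 without E2-2, 7 without S1-1, 10 without E2-3 and 135 (81 higher) without S2-4, and between 12 and 16 without the others. Without the nuclei over 10000 UMIs, 30 genes were called (11 higher and 19 lower), including 12 of the 13 among the 16 that could still be tested, and after thinning each nucleus to 2000 UMIs, 4 were called, all lower, and of the 5 among the 16 that could then be tested Aff2 was called. Single genes differed in how often they were called over the alternatives that gave them a value. DESeq2 gave Gm48003, Mgat4c and 4930557K07Rik a log2 change but no adjusted p, which is counted here as not called. After Aff2, Ptprg and Gm26733 came Gm48003 (19 of 22), Cntn5 (21 of 25), Nrg3os (16 of 24) and Nr3c2 (15 of 24). The 9 genes that lost the call with batch as a term were Slit2 (called under 12 of 24), Lrrc4 (11 of 24), Mgat4c (10 of 22), Gm20642 (9 of 24), Pdcd4 (9 of 25), Mettl23 (8 of 24), Kcnq1ot1 (8 of 25), Pebp1 (7 of 24) and 4930557K07Rik (6 of 22).

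No member of the other gene lists was called for treatment. Of 11 interneuron identity genes tested, the median log2 change was 0.17 against 0.00 over all genes tested, with 1 unadjusted p under 0.05 (Dlx5, 0.92 ± 0.38). The 8 caudal genes tested had a median of 0.19, and Zbtb16, at 162, 253, 152, 131 and 205 CPM in saline and 290, 266, 288, 288 and 328 CPM in EtOH embryos, came closest (0.69 ± 0.17, edgeR adjusted p = 0.0943). The 5 medial genes tested had a median of 0.07. Of 6 lateral eminence genes tested, 3 had an unadjusted p under 0.05, and the median was -0.69. Meis2 had means of 1427 and 755 CPM (log2 change -0.93 ± 0.21, edgeR adjusted p = 0.0943) and Foxp2 of 514 and 275 CPM (-0.93 ± 0.24, adjusted p = 0.136). For 17 migration genes the median was -0.14, for 4 neuregulin and Erbb genes 0.12, for 16 glutamate receptor genes -0.03, for 16 synaptic adhesion genes 0.02 and for 10 maturation genes 0.06. Of the 100 study markers of this cluster and of the 90 tested for Cluster 5, 14 and 11 had an unadjusted p under 0.05 and were higher, against 235 (6%) of all 3915 genes tested, with medians of 0.17 and 0.16. In the other direction these were 2 and 0, against 206 (5.26%) of all genes.

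Whether the EtOH effect in Cluster 23 differed from that in Cluster 5 of the same embryos was tested with an interaction term in edgeR, with the embryo as a block. Of 10607 genes tested, 11 (0.104%) were called, 1 with a higher effect in Cluster 23 (0.00943%) and 10 with a lower one (0.0943%), and 579 (5.46%) had an unadjusted p under 0.05, 174 with a higher effect (1.64%) and 405 with a lower one (3.82%). The filter on low counts took Cluster 23 together with the deeper Cluster 5 and asked for fewer samples. Of the 10607 genes, 6692 passed it without having passed the filter in Cluster 23 alone. Among them were 4 of the 10 genes with a lower effect, Hs3st4, Zfp804b, Rgs6 and Olfm3, each with a higher mean level in Cluster 5. Because 9 of the 10 had a lower mean in Cluster 23 than in Cluster 5 (51.6% of all 10607 did), the split of 1 against 10 is no evidence of a direction. Ptprg, a called gene in Cluster 23 alone as well, led the list. Its log2 change was -1.61 ± 0.26 in Cluster 23 and -0.09 ± 0.08 in Cluster 5 (295 ± 19.4 and 287 ± 30.2 CPM in saline and EtOH embryos), a difference of -1.58 ± 0.22 (edgeR adjusted p = 1.65e-05). Aff2 had -1.59 ± 0.22 in Cluster 23 and -0.36 ± 0.10 in Cluster 5 (761 and 615 CPM), a difference of -1.30 ± 0.18 (edgeR adjusted p = 1.65e-05).

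Pcdh7, a protocadherin, was not called in Cluster 23 alone, where it stood at 503, 362, 355, 279 and 276 CPM in saline and at 269, 153, 107, 167 and 60.2 CPM in EtOH embryos. These groups did not overlap. In Cluster 5 it had means of 920 and 850 CPM, and the difference in effect was -1.24 ± 0.19 (edgeR adjusted p = 0.000105). Hs3st4, a heparan sulfate sulfotransferase, stood at 86.5, 69.1, 107, 65.6 and 30.6 CPM in saline and at 0, 28.2, 4.30, 18.6 and 16.4 CPM in EtOH embryos, while Cluster 5 had 166 and 209 CPM. Hs3st4 did not pass the filter in Cluster 23 alone, and its difference of -2.66 ± 0.37 (edgeR adjusted p = 1.65e-05) was not called after thinning to 2000 UMIs (adjusted p = 0.0597). Zfp804b, a zinc finger gene with 71 UMIs and, like Hs3st4, not testable in Cluster 23 alone, had means of 39.9 and 3.38 CPM in Cluster 23 and 74.4 and 82.8 CPM in Cluster 5 (-3.20 ± 0.57, edgeR adjusted p = 0.00154), and was likewise not called after thinning.

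Mgat4c and Cntn5 were again among the 10. Mgat4c had 145 and 180 CPM in Cluster 5 and a difference of -2.14 ± 0.41 (edgeR adjusted p = 0.0105), and Cntn5 had 459 and 456 CPM and a difference of -1.70 ± 0.29 (edgeR adjusted p = 0.0152). Mgat4c was called under 13 of the 18 alternatives, and not with DESeq2, after thinning or without E1-2, E2-1 or E2-2. Cntn5 was called under 16, and not without TMM (edgeR adjusted p = 0.0745) or without the nuclei over 10000 UMIs (0.261). Over the 18 alternatives the difference lay between -2.89 and -1.37 for Mgat4c and between -1.86 and -1.48 for Cntn5. Dpf3, a chromatin remodelling subunit and the only one of the 10 with a higher mean in Cluster 23 (104 CPM) than in Cluster 5 (41.5 CPM), had means of 147 and 61.3 CPM in Cluster 23 and a difference of -1.36 ± 0.30 (edgeR adjusted p = 0.0366). Rgs6, a regulator of G protein signalling with 88 UMIs, and Olfm3, an olfactomedin with 84, were not testable in Cluster 23 alone. They had overlapping groups and differences of -2.15 ± 0.47 and -2.10 ± 0.48 (edgeR adjusted p = 0.0366 and 0.0472). Rgs6 had means of 31.5 and 10.1 CPM in saline and EtOH embryos in Cluster 23 and of 63.2 and 86.0 CPM in Cluster 5. Olfm3 had means of 34.6 and 12.7 CPM in Cluster 23 and of 49.01 and 70.9 CPM in Cluster 5. Without the nuclei over 10000 UMIs, 45 of 46 of them in saline embryos, the difference of Rgs6 was -0.77 (edgeR adjusted p = 0.9999). Of the 18 alternatives, Rgs6 was called under 8, Olfm3 under 7 and Dpf3 under 5. Rgs6 and Olfm3 belong to a list that the study chose from these nuclei across clusters, and no direction is taken from that list. In 8 of the 10, Cluster 23 was among the 5 clusters with the lowest levels, as it was for 2379 (22.4%) of all 10607 genes tested.

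Nr3c2 was the gene with the higher effect. It rose in Cluster 23 as given above, and in Cluster 5, where it stood at 7.69 and 5.81 CPM, its log2 change was -0.48 ± 0.34, a difference of 2.22 ± 0.45 (edgeR adjusted p = 0.0119). This difference was called under 14 of the 18 alternatives. It was not called without the nuclei over 10000 UMIs (difference 2.02, edgeR adjusted p = 0.0582) or after thinning (2.62, adjusted p = 0.165). Nor was it called without S2-1 (1.83, adjusted p = 0.0669) or without E2-2 (2.02, adjusted p = 0.134). Slit2 had a change of -0.83 ± 0.15 in Cluster 5 as well (207 and 119 CPM, edgeR adjusted p = 0.0439), and its difference of -0.96 ± 0.28 was not called (adjusted p = 0.342). Aff2, Ptprg and Pcdh7 were called under all 18 alternatives of this comparison, and without S2-4 the count of calls was 34 in place of 11. None of the 18 had a batch or dam term, and littermates were treated as independent here as well. The overlaps between alternatives given for Aff2 above apply here too.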

How the data were processed

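Nuclei of the cortices of embryonic day 14 mice were profiled by droplet-based snRNAseq, 1 embryo per library. The authors obtained counts on mm10 with Cell Ranger, filtered nuclei and genes, clustered the nuclei in Seurat, and deposited raw UMI counts in 275 tables, 1 for each of 11 embryos and 25 clusters, with 23513 genes each. The methods state the default settings and default mm10 reference of Cell Ranger, and its version is not given in the sources used here. The deposited counts were whole numbers. The methods name no doublet caller, and no nucleus was removed here.

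Counts of Cluster 23 were summed per embryo (at least 10 nuclei), with CPM over all UMIs of that sum, and a pseudocount of 1 CPM in ratios of clusters. Treatment was tested with edgeR 4.0.16 (TMM, filterByExpr, robust glmQLFit, R 4.3.3) without covariates, and the difference from Cluster 5 with the embryo as a block. Shares and depth were tested by exact permutation. DESeq2 1.42.0 was an alternative, as were filters, scaling, thinning and each embryo left out in turn. For the treatment test alone, limma 3.58.1 and batch and dam terms were alternatives too. Python 3.11.15, NumPy 2.4.6, SciPy 1.17.1, pandas 2.3.3 and matplotlib 3.10.9 were used. Positions came from GENCODE M21 (GRCm38), by gene symbol (23125 matched). Vip was not analysed here, and results for some genes of the lists are not reported here. Between littermates, the mean chi-square per gene lay between 1.70 and 4.67, above the 1 of 2 independent draws from the same pool of RNA.

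The text names the 3 markers, up to 10 called genes per direction in each test, the 20 genes that most exceeded any other cluster (at 50 CPM or more), the 10 per direction against Cluster 5 (at 100 CPM or more), and members of the lists. These members, lists and rules were chosen with earlier results of these data known. Cacna2d3 and Nrg3 were also set beside their opposite-strand transcripts after the calls were seen.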

Additional observations from a re-analysis of the deposited data

Results flagged for a closer look

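In 3 of 76 groups of embryos examined, 1 embryo lay far from the rest of its group by Dixon's criterion, which by chance alone happens in about 1 group in 20. In the saline group S2-4 was high for Mettl23 (88.8 CPM, the others between 26.3 and 43.8 CPM) and for Gm20642 (64.3 CPM, the others between 9.69 and 19.7 CPM), and in the EtOH group E2-2 was high for Aff2 (138 CPM, the others between 107 and 112 CPM). S2-4 was also the saline embryo with the lowest median depth (5148 UMIs per nucleus) and only 1 nucleus over 10000 UMIs.

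The effect of EtOH differed between Clusters 23 and 5 by the interaction term for 11 genes, given as the log2 change in Cluster 23 minus that in Cluster 5. It was higher for Nr3c2 (2.22) and lower for Aff2 (-1.30), Ptprg (-1.58), Pcdh7 (-1.24) and Cntn5 (-1.70). It was also lower for Hs3st4 (-2.66), Zfp804b (-3.20), Mgat4c (-2.14), Dpf3 (-1.36), Rgs6 (-2.15) and Olfm3 (-2.10). Hs3st4, Zfp804b, Rgs6 and Olfm3 did not pass the filter on low counts in Cluster 23 alone and were tested only with Cluster 5 added. Without the nuclei over 10000 UMIs the value of Rgs6 was -0.77 (edgeR adjusted p = 0.9999). Of the 10 lower ones, 9 had a lower mean level in Cluster 23 than in Cluster 5, and the part of other cells' RNA in these differences was not tested.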

How the results depend on the processing

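The 16 genes called for treatment kept their direction under each alternative that gave them a value. They were called in these same embryos, so a kept direction was largely set by that choice and is no separate evidence. The number of calls moved from 16 (10 higher) to 48 with DESeq2 (17 higher, 31 lower), 192 with no filter beyond 1 count (53 higher), 10 with at least 20 nuclei (5 higher), 4 after thinning (0 higher, 1395 genes tested), 40 with voom and the dam as a random block (29 higher) and 46 with counts summed per dam (10 higher). With alternatives chosen after seeing the data it was 30 without nuclei over 10000 UMIs (11 higher), 25 with batch as a term as well (10 higher) and 8 in batch 2 alone (5 higher). It was 14 without TMM (8 higher), 20 with at least 5 nuclei (11 higher) and 11 with batch as a term (7 higher, 7 shared). Each embryo left out in turn gave 2 to 135 calls, and 8 to 34 for the difference from Cluster 5, which had 55 calls with no filter and 20 after thinning. For these counts the cause was not tested, apart from the numbers of genes and embryos that each alternative changes by its construction.

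Embryos with the same number share only a number. The correlation of their deviations over 3915 genes was 0.05, -0.02, 0.03 and -0.04 in the 4 pairs, and 1 of 4 saline embryos correlated best with its own partner. With the replicate number within the batch as a block 38 genes were called (11 higher), against 10 (4 higher) in the same embryos without it.

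The share of nuclei differed by -0.0535 points as means per dam and by -0.0460 to 0.149 with 1 embryo left out, and the share of interneurons by -0.0298 to 0.717, or by -0.429 with Clusters 5 and 23 as denominator. The median depth differed by -1966 to -1195.5 UMIs with 1 embryo left out and by -1559 (p = 0.0571, exact permutation) within batches. The log2 changes of the markers, which were not called, changed sign for Erbb4 with no filter (-0.029) and per dam (-0.061) and for Gad2 after thinning (0.018). That of Dlx1 did so without TMM (0.0014), with at least 5 nuclei (0.011), with batch as a term (0.043), in batch 2 alone (0.15), with the replicate block (0.0043) and with voom (0.017). With 1 embryo left out they ran from -0.0028 to 0.19 for Erbb4, -0.11 to 0.017 for Gad2 and -0.063 to 0.060 for Dlx1. At 17 to 80 nuclei per embryo, genes of a few CPM rest on single UMIs.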

Other observations

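Further lists describe Cluster 23 without any call for treatment. Among 14 genes of GABA-A receptors and chloride transport, none had its highest mean here, and 10 were below Cluster 5. The subunit gene Gabra2 stood at 282 ± 109 CPM, and Gabrg3 was the clearest difference from Cluster 5 (43.3 against 326 CPM, lower in 10 of 10 embryos). The chloride importer Slc12a2 was at 81.8 CPM and the exporter Slc12a5 at 13.7 CPM. Of the 7 tested for treatment the median log2 change was -0.19. Of 14 sodium and calcium channel genes, Cacng2 had its highest mean here (173 ± 33.8 CPM), Cacna2d3 stood at 1846 CPM against 495 CPM in Cluster 5, and the 13 tested had a median log2 change of 0.17.

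Of 31 Wnt pathway genes, Wnt5a had its highest mean here, ahead of 90.6 CPM in the cortical hem Cluster 21, and Wls, which carries Wnt ligands to the surface, stood at 207 CPM against 89.8 CPM in Cluster 5. Of 12 tested for treatment, the median log2 change was 0.04 and that of Wnt5a 0.75 ± 0.23 (edgeR adjusted p = 0.185, not called). Of 13 apoptosis and p53 genes, which summed to 403 CPM, the 5 tested had a median log2 change of 0.16. Of 17 genes of alcohol metabolism and oxidative stress, 3 had no UMI in the cluster (Adh1, Adh7 and Hmox1), the whole list summed to 225 CPM, and 1 could be tested (log2 change 0.21). Of the 12 genes that the study names across clusters, 2 could be tested for treatment, with a median of 0.25, and none was called.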
